A study of Mus musculus with 6 samples.

Results

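The 10 genes described here encode transcription factors and cofactors that build and maintain heart muscle: the GATA zinc-finger factors Gata4, Gata5 and Gata6, the homeodomain factors Nkx2-5 and Isl1, the basic helix-loop-helix factors Hand1 and Hand2, the GATA cofactors Zfpm1 and Zfpm2 (also called FOG1 and FOG2), and the muscle methyltransferase gene Smyd1. They were chosen by gene symbol, and all 10 were found among the 24062 symbols of the deposited count table and passed the filter on low counts that left 13629 genes tested. RNA-seq libraries came from ventricles of male C57/Bl6N mice on postnatal day 1, 3 from Med12cKO mice, which carried Cre (CrePOS) for a heart-specific knockout of Med12, and 3 from control mice without Cre (CreNEG). Med12 encodes a subunit of the kinase module of Mediator, a large complex through which transcription factors act on RNA polymerase II. The promoter that drives Cre, and whether control mice carried the conditional Med12 allele, are not stated in the sources used here. Cre was present in Med12cKO mice alone, so its own effects and those of losing Med12 cannot be told apart.

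In the developing heart GATA4 and NKX2-5 bind each other and neighbouring DNA sites to switch on genes of the contractile apparatus and of natriuretic peptides. GATA5 and GATA6 share the zinc fingers of GATA4, and FOG proteins bind one of those fingers and tune GATA activity. HAND2 and HAND1 are needed for growth of the right and the left ventricle, ISL1 marks progenitors of the second heart field and later the pacemaker, and SMYD1 acts in heart and skeletal muscle on chromatin and on myosin assembly. In mice, loss of Gata4, Nkx2-5, Hand1, Hand2, Zfpm2, Isl1 or Smyd1 disturbs heart formation.

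None of the 10 genes passed the test between Med12cKO and control ventricles. Gata6 and Hand1 each separated the groups without overlap, as did 8.23% of all genes tested. Gata6 stood at 74.8% of its control mean and Hand1 at 173% of its control mean in Med12cKO ventricles. Gata4 and Smyd1, the 2 genes with the most reads per exon length, had Med12cKO means of 96.5% and 106% of control. Nkx2-5 and Hand2 were highest of all 6 libraries in Med12cKO replicate 3, while the other 2 Med12cKO libraries lay below all 3 controls in both genes. Gata4, Hand1 and Zfpm1 were also highest in Med12cKO replicate 3. Values are counts scaled by TMM, a correction for library composition, to a common library size and given in the usual unit, CPM, and each group is summarised by its mean ± SD over 3 libraries. Differences were tested with edgeR's quasi-likelihood F test, with Benjamini-Hochberg adjustment over all 13629 genes and a threshold of 0.05.

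The promoter sequences of 3 of the genes are shown here, from 250 bases before to 50 after the RefSeq start (build GRCm38.p6). Nkx2-5 and Hand2 are shown because both were highest in Med12cKO replicate 3 and below all controls in the other 2 Med12cKO libraries. Gata4, Hand1 and Zfpm1 were also highest in that replicate. Smyd1 is shown because it had the highest level per length. Sequences run 5′ to 3′ on the gene's own strand. For Nkx2-5 and Smyd1 the RefSeq start used lies inside the GENCODE gene span given further below, not at its end. Capitals mark matches, on either strand, to the GATA core (GATAA), the NKX2-5 core (AAGTG) and the E-box (CANNTG) that HAND proteins bind with a partner. Motifs were counted in the RefSeq promoters of 6 of the 10 genes. Gata4, Gata6, Hand1 and Zfpm2 were not among them.
Nkx2-5 promoter (chr17:26841516-26841815, minus strand): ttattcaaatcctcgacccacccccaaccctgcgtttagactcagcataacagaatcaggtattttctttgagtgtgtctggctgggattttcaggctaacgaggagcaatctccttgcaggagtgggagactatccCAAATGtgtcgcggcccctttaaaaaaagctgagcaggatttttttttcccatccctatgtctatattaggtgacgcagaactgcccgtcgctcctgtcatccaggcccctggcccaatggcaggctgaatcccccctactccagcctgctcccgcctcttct
Hand2 promoter (chr8:57320733-57321032, plus strand): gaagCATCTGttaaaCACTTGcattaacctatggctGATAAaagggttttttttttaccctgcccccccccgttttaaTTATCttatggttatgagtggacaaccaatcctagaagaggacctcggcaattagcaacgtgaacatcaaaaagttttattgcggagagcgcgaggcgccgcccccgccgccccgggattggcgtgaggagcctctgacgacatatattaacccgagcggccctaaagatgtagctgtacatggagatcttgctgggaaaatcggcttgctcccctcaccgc
Smyd1 promoter (chr6:71262232-71262531, minus strand): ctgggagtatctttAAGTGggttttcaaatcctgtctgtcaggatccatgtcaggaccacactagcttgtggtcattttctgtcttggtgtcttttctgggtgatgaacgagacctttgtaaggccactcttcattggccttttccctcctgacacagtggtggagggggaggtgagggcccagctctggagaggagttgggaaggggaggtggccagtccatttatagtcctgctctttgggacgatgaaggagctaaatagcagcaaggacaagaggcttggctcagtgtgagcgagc
The Hand2 window held 2 GATA cores, 2 E-boxes and 1 NKX2-5 core, and that NKX2-5 core lies inside an E-box, so the same bases are counted in both. The Nkx2-5 window held 1 E-box and neither of the other motifs, and the Smyd1 window held 1 NKX2-5 core alone. Among the 6 promoters, 2 held a GATA core, 2 an NKX2-5 core and 4 an E-box. Of all 32851 promoters of the same length, 25.4% held a GATA core, 46.4% an NKX2-5 core and 72.3% an E-box. A match describes letters in the window and shows no binding.

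Library totals ran from 8453346 to 10150557 counts in Med12cKO and from 8930340 to 10911698 counts in control. Med12 itself measured 61.6, 85.0 and 41.3 CPM in Med12cKO replicates 1 to 3, against 103, 176 and 113 CPM in controls 1 to 3. Every Med12cKO library lay below every control (log2 fold change −1.06, SE 0.30), although Med12 did not pass edgeR (adjusted p = 0.765) and passed DESeq2 (adjusted p = 0.025). Among the 4 libraries whose descriptions start with an I, a letter the labels do not explain, the Med12 difference was −1.48 on the log2 scale, and in the single pair with the letter J it was −0.28, with no replicate. Med12cKO replicate 1 and control replicate 3 held thymus transcripts, with 10 T-cell markers averaging 78.0 and 77.4 CPM, against at most 0.541 CPM in the other 4 libraries. As a check of the tissue, the ventricular myosin light chain gene Myl2 stood at 4872 to 7379 CPM in Med12cKO and 6339 to 8075 CPM in control. Summed over 7 cardiomyocyte markers, Med12cKO libraries held 24970.5 to 31724 CPM and control libraries 32719 to 40456 CPM, without overlap. Taken singly, Ryr2 alone of the 7 had groups without overlap. In bulk tissue, fewer cells of a type and less RNA per cell cannot be told apart.

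Across all genes tested edgeR called 3 genes (0.022%), limma-voom 4 (0.0293%) and DESeq2 65 of the 12795 to which it gave an adjusted p (0.508%), and none of the 10 factor genes was among them. Before adjustment, 515 genes (3.78%) had an edgeR p under 0.05, Gata6 and Hand1 among them. Groups did not overlap, with Med12cKO lower, in 496 genes (3.64%), and with Med12cKO higher in 625 (4.59%). Gata6 is among those lower in Med12cKO and Hand1 among those higher.

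**Figure D1:**
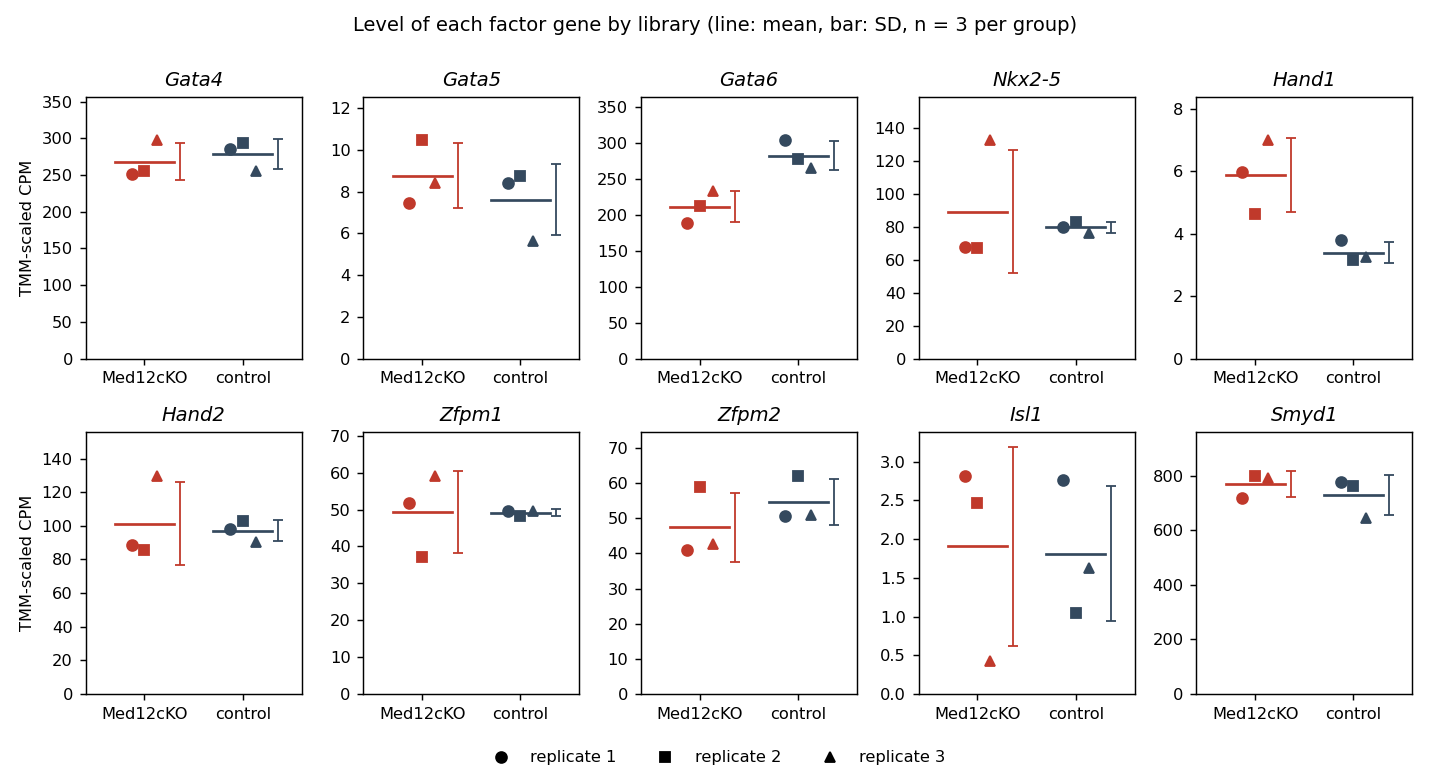
Level of each of the 10 factor genes in TMM-scaled CPM (y axis, from 0) in 3 Med12cKO and 3 control libraries (marker shape: replicate number; line: mean; bar: SD). Groups are apart for Gata6 (189.6 to 233 against 265 to 304 CPM) and Hand1 (4.64 to 6.995 against 3.144 to 3.80 CPM) and overlap for the other 8.

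Among the GATA factors, Gata6 was the one with separated groups. GATA6 acts beside GATA4 in heart muscle and is also found in the epicardium, endocardium and vascular smooth muscle. Gata6 (chromosome 18, 11052064 to 11085635, plus strand, GRCm38) measured 189.6, 212 and 233 CPM in Med12cKO replicates 1 to 3, against 304, 279 and 265 CPM in control replicates 1 to 3. The highest Med12cKO library lay below the lowest control. The mean was 212 ± 21.8 CPM in Med12cKO and 283 ± 19.8 CPM in control, a log2 fold change of −0.42 (SE 0.13; 95% interval −0.70 to −0.14). This did not pass over all genes (edgeR adjusted p = 0.729, unadjusted p = 0.0083; DESeq2 adjusted p = 0.150), and the two-sided exact permutation test gave p = 0.10, its lower limit with 3 libraries a group. Without the 2 libraries with thymus transcripts the log2 fold change was −0.39, with a thymus term −0.42, and −0.35 among the 4 letter I libraries. In the letter J pair the difference was −0.52, with no replicate. An antisense gene, 1010001N08Rik, shares 1.43% of the exon bases of Gata6 on the other strand. It measured 17.5, 31.3 and 19.4 CPM in Med12cKO, against 29.2, 39.1 and 27.7 CPM in control, with overlapping groups. Whether reads were counted by strand is not stated in the sources used here, so reads of the pair cannot be told apart where they overlap.

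Markers of the other cell types in which Gata6 is known were looked at beside it. Their part in the Gata6 difference was not tested. The 7 epicardial markers summed to 195 to 376 CPM in Med12cKO and 281 to 368 CPM in control, and the 8 endothelial and endocardial markers to 1213 to 1409 CPM in Med12cKO and 1285 to 1404 CPM in control. The 7 smooth muscle and pericyte markers summed to 1204 to 1968 CPM in Med12cKO and 691 to 1249.9 CPM in control. Among them Cnn1, the gene of smooth muscle calponin, measured 74.9, 116 and 84.7 CPM in Med12cKO, against 34.2, 23.9 and 27.2 CPM in control, without overlap (log2 fold change 1.70; edgeR unadjusted p = 1.0e-05). Tagln, Acta2 and Myh11 had log2 fold changes of 0.67, 0.99 and 0.52, with overlapping groups. Rgs5 (0.0011) and Pdgfrb (−0.27) overlapped too, and Kcnj8 was lower in every Med12cKO library than in any control (−0.31). None of these markers was below 1 CPM in all libraries, and the groups overlapped in each of the 3 sums. The cardiomyocyte sum was lower in every Med12cKO library, as given with the library totals. All 7 of its genes had a negative log2 fold change, but those of Actn2 (−0.012) and Ttn (−0.021) were close to 0. Ryr2 (−0.78) alone of the 7 had groups without overlap.

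Gata4, the factor most used to mark heart muscle progenitors (chromosome 14, 63198922 to 63271692, minus strand), did not separate the groups as Gata6 did. The 95% intervals of Gata4 and Gata6 overlap. Gata4 measured 252, 256 and 298 CPM in Med12cKO, against 286, 294 and 255 CPM in control. Groups overlapped, with the highest value in Med12cKO replicate 3 and 2 Med12cKO libraries next to control replicate 3. The log2 fold change was −0.05 (SE 0.12), and its 95% interval of −0.33 to 0.23 leaves a fold of 0.795 to 1.17. Gata5, which in the heart is best known from the endocardium (chromosome 2, 180325133 to 180334699, minus strand), was a low-level gene at 7.44, 10.5 and 8.39 CPM in Med12cKO, against 8.40, 8.76 and 5.64 CPM in control. Those values rest on 59 to 106 reads a library, and the interval of the log2 fold change ran from −0.33 to 0.75. Its antisense neighbour Gata5os, which shares 7.87% of its exon bases, averaged 1.10 CPM in Med12cKO and 0.943 CPM in control.

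The ratio of relatives within a library does not depend on scaling between libraries, and 5 such ratios were formed, all pairs within the GATA, HAND and FOG families. This was decided after the levels had been seen. Gata6 had 0.752, 0.828 and 0.783 reads per Gata4 read in Med12cKO replicates 1 to 3, against 1.06, 0.950 and 1.04 in controls 1 to 3. Hand1 had 0.0675, 0.0543 and 0.0539 reads per Hand2 read in Med12cKO, against 0.0388, 0.0306 and 0.0360 in control. The ratio of Gata6 to Gata5 also separated the groups, while those of Gata5 to Gata4 and of Zfpm1 to Zfpm2 overlapped. Each separated pair reached the smallest exact permutation p of 0.10, or 0.167 adjusted over the 5 pairs, so none passed.

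**Figure D2:**
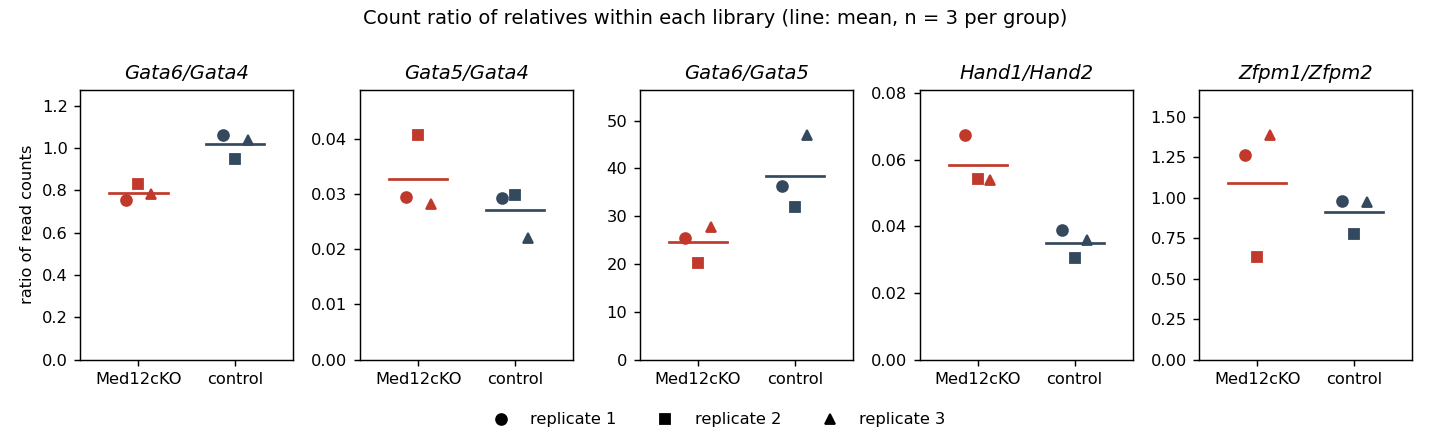
Ratio of raw read counts of 2 related genes within each library (y axis, from 0; marker shape: replicate number; line: mean) in Med12cKO and control. Gata6/Gata4, Gata6/Gata5 and Hand1/Hand2 are apart between the groups, and Gata5/Gata4 and Zfpm1/Zfpm2 overlap.

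Of the HAND genes, Hand1 had groups without overlap and Hand2 had overlapping groups, but the ratio between them did not pass. Hand1, which in the embryo marks the outer wall of the left ventricle (chromosome 11, 57828705 to 57832818, minus strand), measured 5.98, 4.64 and 6.995 CPM in Med12cKO, against 3.80, 3.144 and 3.25 CPM in control. Every Med12cKO library lay above every control. The reads behind these values were 53, 47 and 65 in Med12cKO and 33, 33 and 34 in control. The mean was 5.87 ± 1.18 CPM in Med12cKO and 3.398 ± 0.35 CPM in control, a log2 fold change of 0.79 (SE 0.25; 95% interval 0.22 to 1.36). It did not pass (edgeR adjusted p = 0.850, unadjusted p = 0.012; DESeq2 adjusted p = 1.00; exact permutation p = 0.10). In letter I libraries the log2 fold change was 1.03 and in the letter J pair the difference was 0.29. Without the thymus libraries it was 0.74. The smooth muscle and cardiomyocyte sums given for Gata6 stand beside this difference too, and their part in it was not tested.

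Hand2, the partner needed for the right ventricle (chromosome 8, 57320983 to 57324633, plus strand), measured 88.5, 85.4 and 129.8 CPM in Med12cKO, against 97.8, 103 and 90.4 CPM in control. One Med12cKO library was above all controls and 2 were below, so the mean of 101 ± 24.8 CPM in Med12cKO differed from 97.0 ± 6.29 CPM in control by less than the spread. The log2 fold change was 0.06 (SE 0.17), and −0.16 without Med12cKO replicate 3. Overlapping Hand2 on the other strand lies Hand2os1, a non-coding RNA gene listed in the table as LOC102636514, the RefSeq gene number of that name. It measured 97.9, 107 and 129 CPM in Med12cKO, against 132, 130 and 109 CPM in control, with overlapping groups (log2 fold change −0.15, SE 0.14). In GENCODE 19.6% of the exon bases of Hand2 are shared with Hand2os1, and reads there cannot be assigned to either gene without strand. HAND2 and GATA factors also act in sympathetic neurons. Of the markers looked at for those cells, Ddc, the gene of an enzyme of catecholamine synthesis, stood at 78.8 to 135 CPM in Med12cKO and 179 to 236 CPM in control, without overlap. Dbh, which acts after Ddc in noradrenaline synthesis, measured 3.38, 3.26 and 4.197 CPM in Med12cKO, against 6.10, 5.34 and 4.208 CPM in control, also without overlap (log2 fold change −0.53). The defining genes Th, Phox2a and Chrna3 were between 0 and 1.48 CPM in Med12cKO and between 0 and 1.61 CPM in control. The part of these cells in the HAND and GATA values was not tested.

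Nkx2-5, among the first genes switched on in heart muscle progenitors (chromosome 17, 26838664 to 26845009, minus strand), had the pattern of Hand2 with a wider spread. It measured 68.0, 67.2 and 132.7 CPM in Med12cKO, against 80.0, 83.2 and 76.1 CPM in control. Med12cKO replicate 3 was far above every other library, and the other 2 Med12cKO libraries lay below all controls. The log2 fold change of 0.16 (SE 0.26; 95% interval −0.44 to 0.76) turned to −0.24 without that library (edgeR unadjusted p = 0.046, adjusted p = 0.657). Isl1 (chromosome 13, 116298281 to 116309689, minus strand) was the lowest of the 10 genes and close to the depth limit. It had 25, 25 and 4 reads in Med12cKO and 24, 11 and 17 reads in control, or 2.82, 2.47 and 0.431 CPM in Med12cKO, against 2.76, 1.05 and 1.63 CPM in control. Its interval, −1.31 to 1.48 on the log2 scale, allows a change of over 2-fold either way, so no difference was detectable at this depth. The pacemaker and second heart field markers summed to 81.5 to 112.9 CPM in Med12cKO and 86.5 to 107 CPM in control.

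Of the GATA cofactors, Zfpm1 (FOG1), a cofactor of GATA1 in blood cells that is also made in the heart (chromosome 8, 122282141 to 122337251, plus strand), measured 51.6, 37.1 and 59.2 CPM in Med12cKO, against 49.6, 48.2 and 49.7 CPM in control. The 3 controls lay close together and the Med12cKO libraries on both sides of them, with a log2 fold change of 0.0031 (SE 0.17). Zfpm2 (FOG2), needed in mice for coronary vessels and valves (chromosome 15, 40655035 to 41104592, plus strand), measured 40.9, 58.8 and 42.6 CPM in Med12cKO, against 50.8, 62.1 and 51.0 CPM in control. Med12cKO replicates 1 and 3 lay below all controls and replicate 2 among them (log2 fold change −0.20, SE 0.16; 95% interval −0.57 to 0.17). The log2 fold change of Zfpm2 was −0.39 without Med12cKO replicate 2 (edgeR unadjusted p = 0.022, adjusted p = 1.00), −0.12 without Med12cKO replicate 1, −0.13 without Med12cKO replicate 3 and −0.098 without control replicate 2. Among letter I libraries it was −0.43, and the letter J pair differed by 0.21 in the other direction. Smyd1 (chromosome 6, 71213940 to 71322233, minus strand) measured 718, 801 and 793 CPM in Med12cKO, against 779, 764 and 644 CPM in control. Groups overlapped, and the interval of −0.23 to 0.39 on the log2 scale leaves a fold of 0.855 to 1.31.

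**Figure D3:**
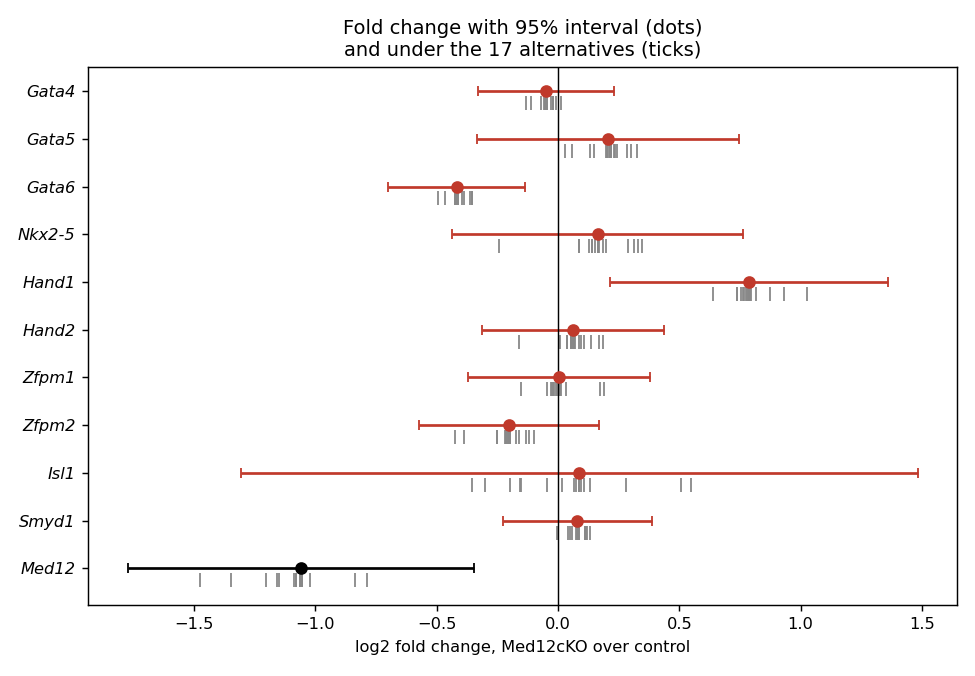
Log2 fold change of each factor gene and of Med12, Med12cKO over control (x axis), with dots and bars for the edgeR value and its 95% interval and grey ticks for 17 alternative settings. The intervals of Gata6 (−0.70 to −0.14) and Hand1 (0.22 to 1.36) lie on one side of 0 before adjustment over all genes, and those of the other 8 factor genes span 0.

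The spread between libraries was wider in Med12cKO than in control for 8 of the 10 genes, and for 65.6% of all genes tested. The coefficient of variation of Nkx2-5 was 42.1% in Med12cKO and 4.42% in control, and that of Zfpm1 22.8% in Med12cKO and 1.72% in control. The medians over all genes tested were 15.6% in Med12cKO and 11.2% in control. Of the 3 Med12cKO libraries, replicate 3 was the highest for 6 of the 10 genes, namely Gata4, Gata6, Nkx2-5, Hand1, Hand2 and Zfpm1, and for 39.7% of all genes tested. It was also the lowest of all 6 libraries for Isl1.

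**Figure D4:**
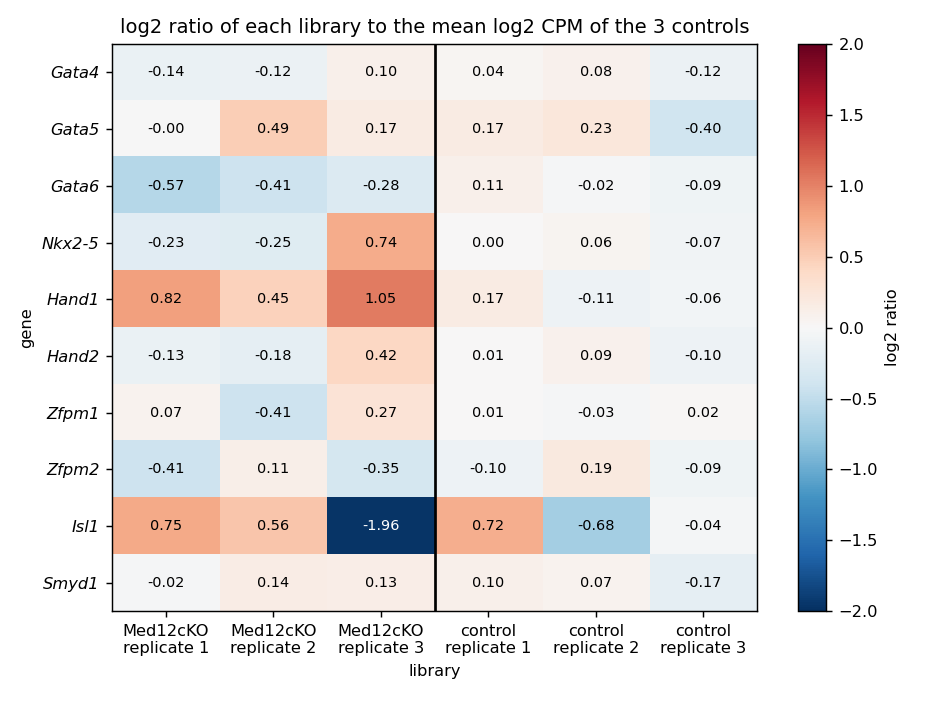
Log2 ratio of each library (columns) to the mean log2 CPM of the 3 controls for each of the 10 factor genes (rows), with the value printed in each cell and blue for lower and red for higher. Gata6 is below 0 in all 3 Med12cKO libraries and Hand1 above 0 in all 3. Gata4, Nkx2-5 and Hand2 are above 0 in Med12cKO replicate 3 alone of that group.

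Levels were compared between genes per kilobase of exon (TMM-scaled CPM per kb, exon lengths from GENCODE M21). Smyd1 came first at 169.5 ± 10.1 CPM per kb in Med12cKO and 160.4 ± 16.2 in control, followed by Gata4 at 68.8 ± 6.44 in Med12cKO and 71.3 ± 5.24 in control. Nkx2-5 had 51.9 ± 21.9 CPM per kb in Med12cKO and 46.4 ± 2.05 in control, Hand2 43.1 ± 10.5 in Med12cKO and 41.3 ± 2.68 in control, and Gata6 32.5 ± 3.35 in Med12cKO and 43.5 ± 3.04 in control. In control Gata6 stood between Nkx2-5 and Hand2, each neighbour overlapping it between libraries, and in Med12cKO it came after both. Zfpm1 (14.1 CPM per kb in Med12cKO and 14.04 in control) and Zfpm2 (4.98 in Med12cKO and 5.73 in control) followed. Hand1 (2.94 in Med12cKO and 1.70 in control) and Gata5 (2.68 in Med12cKO and 2.32 in control) overlapped in Med12cKO libraries, and Isl1 came last at 0.481 in Med12cKO and 0.458 in control. The order was the same in TPM computed with these lengths.

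Of 14 family relatives 7 passed the low-count filter and none was called or reached an unadjusted p under 0.05. The blood-cell factor Gata1 had 1 to 4 reads in Med12cKO and 4 to 7 in control, and Nkx2-6 and Nkx2-9 had none in any library. The lowest p-values belonged to the GATA-type repressor gene Trps1, Gata2, a GATA factor of blood and endothelium, Smyd4 and Smyd5, with log2 fold changes between −0.20 and 0.13. Gata2 averaged 22.6 ± 2.93 CPM in Med12cKO and 25.3 ± 1.83 CPM in control. Smyd2, the relative with the most reads, averaged 203 ± 36.6 CPM in Med12cKO and 202 ± 21.7 CPM in control. Gata3, a T-cell factor as well, was singled out after its values were seen and measured 9.92 CPM in Med12cKO replicate 1 and 11.4 CPM in control replicate 3, the thymus libraries, against 1.29 to 2.53 CPM in the other 4.

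Of 21 partners and cofactors all were tested and none was called by edgeR, with a median log2 fold change of −0.06, against 0.0081 over all genes tested. At an edgeR unadjusted p under 0.05 there were 2 (9.52%, against 3.78% of all genes tested), both lower in Med12cKO. Hey2, a Notch target that holds back GATA4 activity and marks compact ventricular muscle, measured 60.3, 61.1 and 78.99 CPM in Med12cKO, against 142, 154 and 117 CPM in control. Groups were far apart (log2 fold change −1.04, SE 0.15; edgeR adjusted p = 0.111), and DESeq2 called it (adjusted p = 6.0e-07). Tbx5, a T-box partner of GATA4 and NKX2-5, measured 97.9, 95.4 and 108 CPM in Med12cKO, against 131, 144 and 116 CPM in control (log2 fold change −0.37, SE 0.12; edgeR adjusted p = 0.884). The next lowest p-values, for the serum response factor gene Srf (log2 fold change 0.24, SE 0.14) and the myocyte enhancer factor gene Mef2d (−0.28, SE 0.17), came with overlapping groups. Tbx20 and Naca, whose muscle form binds SMYD1, had the most reads among partners, Tbx20 at 448 ± 85.3 CPM in Med12cKO and 529.9 ± 75.1 CPM in control.

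Genes reported in earlier work, mostly in rodents, as targets of these factors made up a list of 27. All were tested and none was called by edgeR. An edgeR unadjusted p under 0.05 was reached by 4 higher and 5 lower in Med12cKO (33.3%, against 3.78% of all genes tested). DESeq2 called 3, against 0.508% of all genes to which it gave an adjusted p. The list was chosen with earlier results of these data known. The median log2 fold change was −0.09. Gja5, which encodes the gap junction protein connexin 40 and is a target of NKX2-5 and TBX5, measured 81.2, 99.9 and 98.7 CPM in Med12cKO, against 171, 212 and 174 CPM in control (log2 fold change −0.99, SE 0.14; edgeR adjusted p = 0.092). Nppb, the gene of B-type natriuretic peptide and a GATA4 target, measured 73.9, 113 and 62.1 CPM in Med12cKO, against 54.8, 27.6 and 33.7 CPM in control (log2 fold change 1.11, SE 0.31; edgeR adjusted p = 0.758). Corin, the protease that activates natriuretic peptides, averaged 147 ± 24.2 CPM in Med12cKO and 239 ± 54.0 CPM in control (log2 fold change −0.71, SE 0.19). In each of the 3 the groups did not overlap, and these were the 3 that DESeq2 called. Vegfa, a growth factor for vessels, averaged 262 ± 22.1 CPM in Med12cKO and 354 ± 42.7 CPM in control (log2 fold change −0.43, SE 0.13). The targets with the most reads, Myh6 and Actc1, which encode the alpha myosin heavy chain and cardiac actin, had overlapping groups. Myh7, which encodes the beta myosin heavy chain and was singled out after its values were seen, had the largest fold of the list and no overlap. It measured 1233, 1799 and 2475 CPM in Med12cKO, against 3575, 6782 and 2688 CPM in control (log2 fold change −1.24, SE 0.39; edgeR unadjusted p = 0.013, adjusted p = 0.882).

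Markers of atrial muscle, Gja5 among them, were looked at beside these genes, and their part in the differences was not tested. The 8 atrial markers summed to 3618 to 5225 CPM in Med12cKO and 3885 to 5178 CPM in control, with overlap, and none was below 1 CPM in all libraries. Of the 8, Myl7, Gja5, Dkk3, Mybphl and Stard10 were lower in every Med12cKO library than in any control, as were 3.64% of all genes tested. Sln (log2 fold change −0.44), Myl4 (0.16) and Nppa (0.18) had overlapping groups. Myl7, an atrial myosin light chain gene, measured 496, 609 and 432 CPM in Med12cKO, against 1240.4, 1149 and 901 CPM in control (log2 fold change −1.10).

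Of 16 genes for signals upstream of these factors 14 were tested and none was called by edgeR, with a median log2 fold change of −0.02. Bmp2, a ligand that induces Nkx2-5 and Gata4 in the early embryo, measured 5.41, 4.24 and 3.77 CPM in Med12cKO, against 11.3, 10.8 and 10.1 CPM in control. Its groups were far apart (log2 fold change −1.26, SE 0.21; edgeR adjusted p = 0.129), and DESeq2 called it (adjusted p = 0.0056). The endothelin gene Edn1 averaged 17.1 ± 3.24 CPM in Med12cKO and 12.8 ± 1.40 CPM in control (log2 fold change 0.42, SE 0.19). The receptor genes Bmpr2 and Ednra had log2 fold changes of 0.14 (SE 0.12) and −0.16 (SE 0.14). Bmpr1a, with the most reads of the list, averaged 181 ± 35.6 CPM in Med12cKO and 181 ± 16.4 CPM in control. Whether the lists differ from each other was not tested, and none of their counts is independent of results already known for these libraries.

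**Figure D5:**
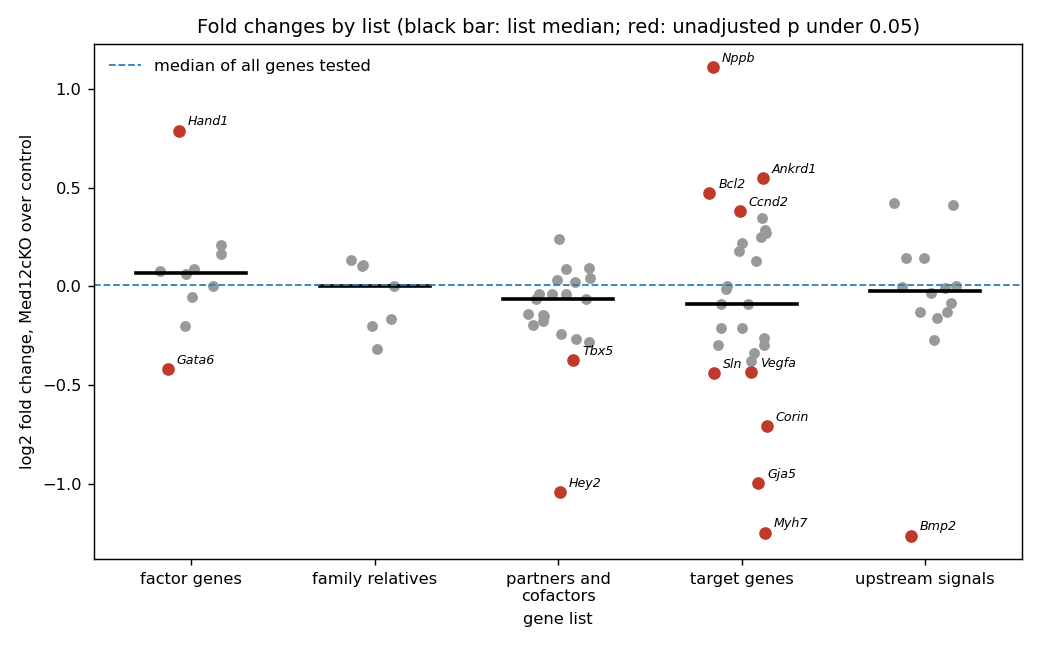
Log2 fold change, Med12cKO over control (y axis), of every tested gene in 5 lists (x axis), with red points for an unadjusted p under 0.05, black bars for list medians and a dashed line for the median of all genes tested. Red points are 2 of 10 factor genes, 0 of 7 family relatives, 2 of 21 partners, 9 of 27 target genes and 1 of 14 upstream signals. Over all genes tested the share was 3.78%.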

How the data were processed

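The authors deposited unnormalised read counts by gene symbol for 6 ventricle libraries, 3 Med12cKO and 3 control, grouped by sample title. Per the submitters' processing notes, TopHat2 2.0.0, featureCounts and edgeR 3.14.0 were used with GRCm38 (mm10). Annotation and strand setting are not given in the sources used here. Replicates of a group differed beyond counting noise (chi-square over its degrees of freedom 15.3 to 31.04). The labels do not tie each library to 1 animal, and p-values then reflect only how these samples vary, which may be technical. Depth limits and the floor of 3 counts (0.286 to 0.345 CPM) cover counting error only.

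Genes were kept by filterByExpr (minimum count 10, minimum total 15) and tested in edgeR 4.0.16 (R 4.3.3) by quasi-likelihood, with TMM scaling and robust dispersions, with Benjamini-Hochberg adjustment over all genes tested. SEs were derived from the log2 fold change and F. Alternatives were DESeq2 1.42.0, limma-voom (limma 3.58.1), other scalings and filters, blocks, a thymus term (T-cell markers averaging at least 10 CPM) and libraries left out. An adjusted p that DESeq2 left undefined stayed so. Per-gene exact permutation tests used log2(CPM + 0.5) and the 20 arrangements of the libraries. Exon lengths from GENCODE M21 were found for 94.4% of symbols. The 10 genes, the lists and the tests were chosen with earlier results of these data known. Named from a list were called genes, else the 4 lowest unadjusted p, and the 2 highest levels. A sum over the sympathetic neuron markers is not reported here.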

Additional observations from a re-analysis of the deposited data

How the results depend on the processing

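None of the 10 factor genes was called in any of the 17 alternatives, and Gata6 (log2 fold change −0.50 to −0.35, edgeR, DESeq2 or limma-voom adjusted p of 0.150 to 1.00) and Hand1 (0.64 to 1.03) kept their direction in all 17. Both missed an unadjusted p under 0.05 without the thymus libraries (0.078 and 0.066), and Gata6 also in letter I libraries (0.057). Signs turned in some settings for Gata4, Nkx2-5, Hand2, Zfpm1, Isl1, Smyd1 and Smyd5, not always at values near 0, and the cause was not tested. Gata4 was 0.013 in letter I libraries. Zfpm1 was −0.026 with limma-voom, −0.0038 with a 1 CPM filter, −0.021 with the replicate number as a block, −0.018 with the letter as a block and −0.029 without thymus libraries. Isl1 was −0.16, −0.044 and −0.36 with limma-voom, the replicate block and without thymus libraries. Smyd5 was −0.0023 without thymus libraries. With 1 library left out, log2 fold changes ran from −0.24 to 0.33 for Nkx2-5, −0.16 to 0.17 for Hand2, −0.15 to 0.17 for Zfpm1, −0.30 to 0.55 for Isl1 and −0.0045 to 0.13 for Smyd1. Med12 was called by DESeq2 (−1.06).

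Over all genes, calls numbered 3 in the main test, 65 with DESeq2, 1 in letter I libraries, 2 with the replicate block and 1 (without Med12cKO replicate 3) to 3 with 1 library left out. DESeq2 called 1 partner, 3 targets and 1 upstream gene, where edgeR called 0. Over all genes to which DESeq2 gave an adjusted p, it called 0.508%. Deviations from group means correlated at −0.32, 0.46 and −0.36 for equal replicate numbers, and at 0.73 between the 2 thymus libraries. Within groups of 3 such deviations depend on each other, so this check cannot settle whether replicate numbers pair the libraries.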
